A study of Mus musculus with 30 samples.

Results

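T-box genes encode transcription factors that share a DNA-binding T-box domain. The 8 described here, Tbx1, Tbx2, Tbx3, Tbx4, Tbx5, Tbx15, Tbx18 and Tbx20, were picked by name rather than by a cut on their values, although earlier results of these data were known, and were found in the 3 count tables by gene ID. They are 8 of the 17 mouse T-box genes and of the 53715 genes counted. Tbx4 has a further place in the design, because in the mutants and in all but 1 of the controls the transactivator that switches on Cre is labelled with its name.

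Gene expression was measured by RNA-seq in embryos with a conditional deletion of Myocd, the gene for myocardin, a coactivator of SRF that switches on contractile genes of smooth muscle. The mutants were Tbx4rtTAi/+; tetOcrei/+; MyocdF/F, and the controls Tbx4rtTAi/+; tetOcrei/+; MyocdF/+, so both carried a transactivator transgene, a Cre transgene that answers to it, and at least 1 floxed Myocd allele. The exception was E13.5 lung control 1, labelled MyocdF/F with no transgenes. There were 6 mutant and 4 control tracheas at E18.5, 6 mutant and 4 control lungs at E18.5 (right lobes), and 5 mutant and 5 control E13.5 lungs (lobes of both sides), each library from a single organ. What part of Tbx4 drives the transactivator is not stated in the labels.

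Within the family, Tbx4 and Tbx5 mark the mesenchyme of the lung bud and upper airway and act in mouse branching upstream of Fgf10, the ligand that draws out epithelial buds. Tbx2 and Tbx3 are mainly repressors, known in lung mesenchyme for holding down inhibitors of the cell cycle such as Cdkn1a and Cdkn1b. Tbx1 is the pharyngeal member, at work in the pharyngeal pouches and in head and neck muscle. Tbx15 and Tbx18 pattern skin, skeleton and mesothelium-derived mesenchyme, and Tbx20 is a cardiac factor.

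The genes lie on 5 chromosomes (GRCm38), all as protein-coding genes. Tbx2 (chr11:85832551-85841948, plus strand) and Tbx4 (chr11:85886422-85916097, plus) are neighbours on chromosome 11, as are Tbx3 (chr5:119670669-119684724, plus) and Tbx5 (chr5:119832668-119885219, plus) on chromosome 5. Tbx18 (chr9:87702800-87731260, minus) and Tbx20 (chr9:24718138-24774303, minus) are far apart on chromosome 9, Tbx15 (chr3:99240381-99354259, plus) is on chromosome 3 and Tbx1 (chr16:18581713-18586969, minus) on chromosome 16. No run of 75 bases, the read length, was shared between any of the 8 in their annotated transcripts, so reads should not be divided between them. Strand was not recorded, and 20.6% of the exon bases of Tbx18 overlap D030062O11Rik on the other strand, so Tbx18 values are uncertain to that extent. For Tbx3 the overlap with Tbx3os1 was 1.74%.

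RefSeq promoter windows of 300 bases (GRCm38.p6) were held for Tbx1, which has 2 starts, Tbx4, Tbx18 and Tbx20. Tbx2, Tbx3, Tbx5 and Tbx15 had none in the table. Those of Tbx4, the gene named in the driver, at chr11:85896515-85896814 on the plus strand, and of Tbx1, one of the members that were higher in trachea, at chr16:18588850-18589149 on the minus strand, are shown 5′ to 3′ with each GC box (GGGCGG on either strand) in capitals.
Tbx4: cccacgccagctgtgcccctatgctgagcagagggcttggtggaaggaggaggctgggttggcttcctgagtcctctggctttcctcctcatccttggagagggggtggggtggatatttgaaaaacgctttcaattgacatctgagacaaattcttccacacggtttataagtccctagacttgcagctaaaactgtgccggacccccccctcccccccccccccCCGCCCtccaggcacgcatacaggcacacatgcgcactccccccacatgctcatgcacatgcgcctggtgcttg
Tbx1: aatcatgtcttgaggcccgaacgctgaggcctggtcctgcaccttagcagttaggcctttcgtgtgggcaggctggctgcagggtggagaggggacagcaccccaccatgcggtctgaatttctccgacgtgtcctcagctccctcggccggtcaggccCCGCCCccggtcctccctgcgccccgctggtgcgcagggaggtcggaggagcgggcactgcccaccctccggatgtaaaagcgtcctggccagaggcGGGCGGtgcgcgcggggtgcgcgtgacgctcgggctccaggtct
The Tbx4 window held 1 GC box and was 59% G and C, and the Tbx1 window shown held 2 and was 69% G and C. The other Tbx1 window, at chr16:18590622-18590921, held 0 and was 58.3% G and C. The windows of Tbx18 and Tbx20 held 0 and 2 GC boxes. A GC box was found in 35.7% of the 32851 promoter windows of all genes. Neither the T-box core GGTGTGA nor its short form GGTGTG, searched on both strands, was in any of the 5 windows, against 3.98% and 19% of all windows. The CArG box that SRF binds, the site through which myocardin acts, was likewise in none of the 5, against 1.63% of all. The start within the Tbx4 window lies 10343 bases inside the gene model that was counted, downstream of its annotated first base. The Tbx1 start shown lies upstream of the counted model, whose 1777 exon bases leave out the distal starts.

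Total counts ran from 11.7 to 30.5 M in the tracheas, from 19.9 to 32.8 M in E18.5 lungs and from 17.4 to 28.5 M in E13.5 lungs. Trachea control 2 stood apart, with the lowest total and 16530 genes detected, against at least 20198 in every other library. Cartilage markers were higher in trachea than lung in 6 of 6 genes, and lung epithelium markers were lower in trachea in 4 of 6, in controls. Of all genes, 24.5% were higher and 24.6% lower in that comparison. Myocd kept reads in each library. In CPM, a gene's reads scaled to a common library size, it stood at 2.74 to 8.66 in mutant tracheas against 0.895 to 8.07 in control tracheas, at 5.57 to 10.1 CPM in mutant against 6.06 to 11.8 CPM in control E18.5 lungs, and at 6.64 to 13.1 CPM in mutant against 10.1 to 18.9 CPM in control E13.5 lungs, so its count did not separate the genotypes. Contractile smooth muscle genes did fall in mutants: 2 of 7 in the trachea, 2 of 7 in E18.5 lung and 5 of 7 in E13.5 lung. Of all genes tested, 0.0655%, 0.55% and 0.188% were lower in the same order. In tissue pieces like these, fewer cells of a type and less RNA per cell cannot be told apart. Intervals are SD between libraries or SE of a fit, and unless another is named the test was edgeR's quasi-likelihood test, with p-values adjusted by Benjamini-Hochberg over all genes tested and a threshold of 0.05.

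**Figure D1:**
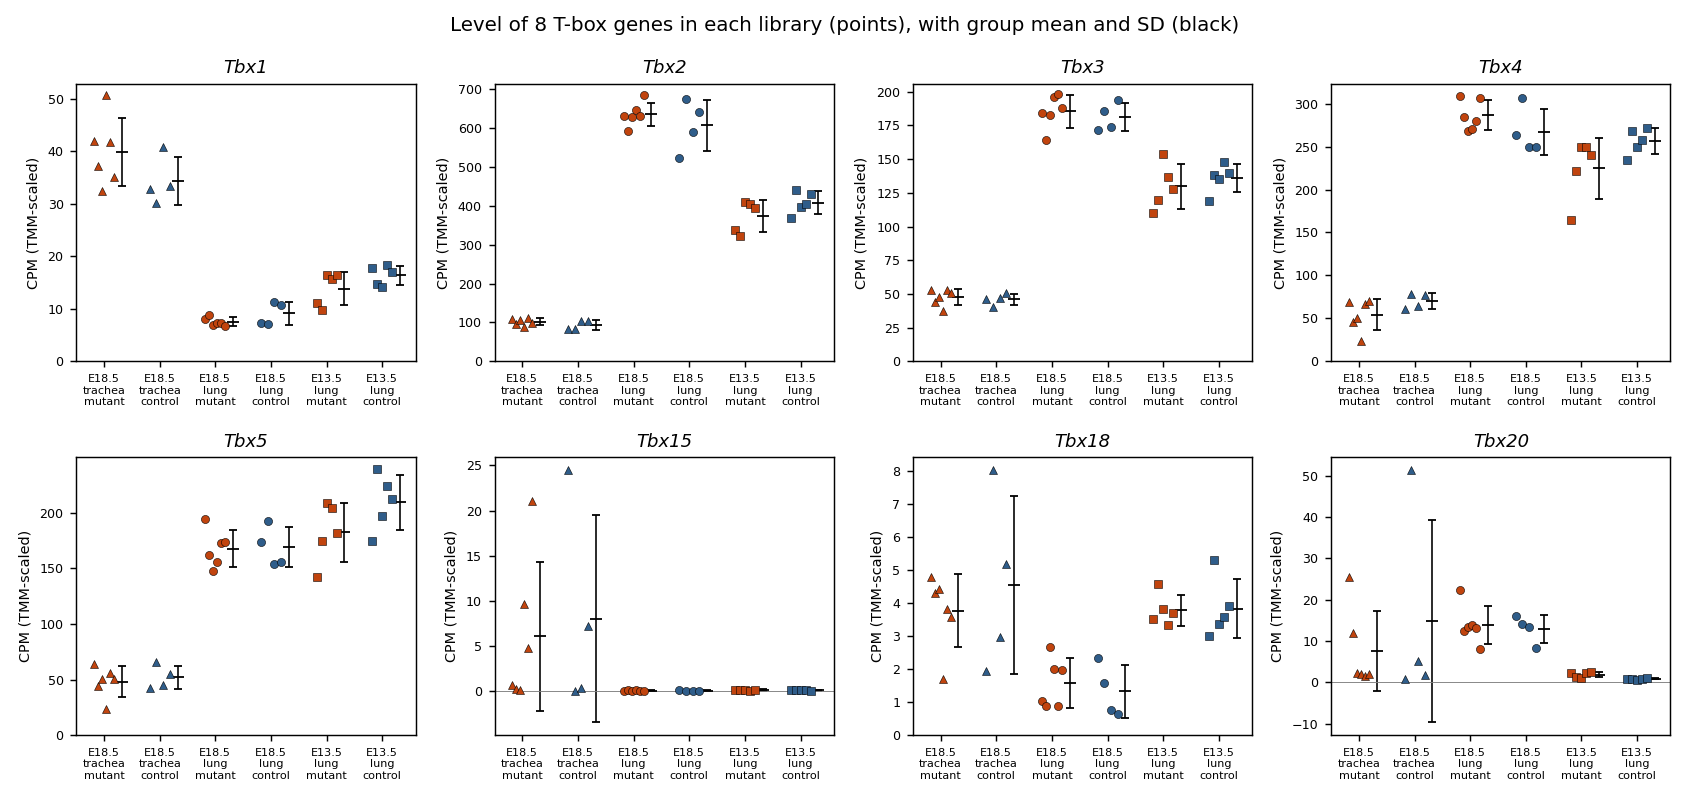
Level of each T-box gene in every library, in CPM (linear axis, TMM-scaled), with the group mean and SD in black; mutants are orange-red, controls blue. Tbx2, Tbx3, Tbx4 and Tbx5 sit far lower in tracheas than in lungs, Tbx1 far higher, and Tbx15 and Tbx20 vary most within the tracheas, where their SD reaches below 0.

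The lung was dominated by 4 members. Per kilobase of exon, which puts genes on one scale, the control E18.5 lungs held Tbx2 at 167 ± 18.2, Tbx4 at 78.6 ± 7.92, Tbx5 at 36.2 ± 3.87 and Tbx3 at 27.4 ± 1.56 CPM per kb (SD, n = 4). Tbx1 followed at 5.13 ± 1.25 CPM per kb, and Tbx20, Tbx18 and Tbx15 stood at 1.08, 0.282 and 0.0157 CPM per kb. Tbx2 alone made up 52.9% ± 2.43 of the summed level of the 8 genes there, and 53.2% ± 1.44 in mutant E18.5 lungs (SD, n = 4 and 6). In the tracheas no member dominated in this way: Tbx2 held 32.3% ± 2.46 in mutants and 29.2% ± 3.03 in controls (SD, n = 6 and 4). Tbx1 held 26.2% ± 6.44 in mutants and 22% ± 3 in controls, and Tbx4 18% ± 4.56 and 23.4% ± 2.1.

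**Figure D2:**
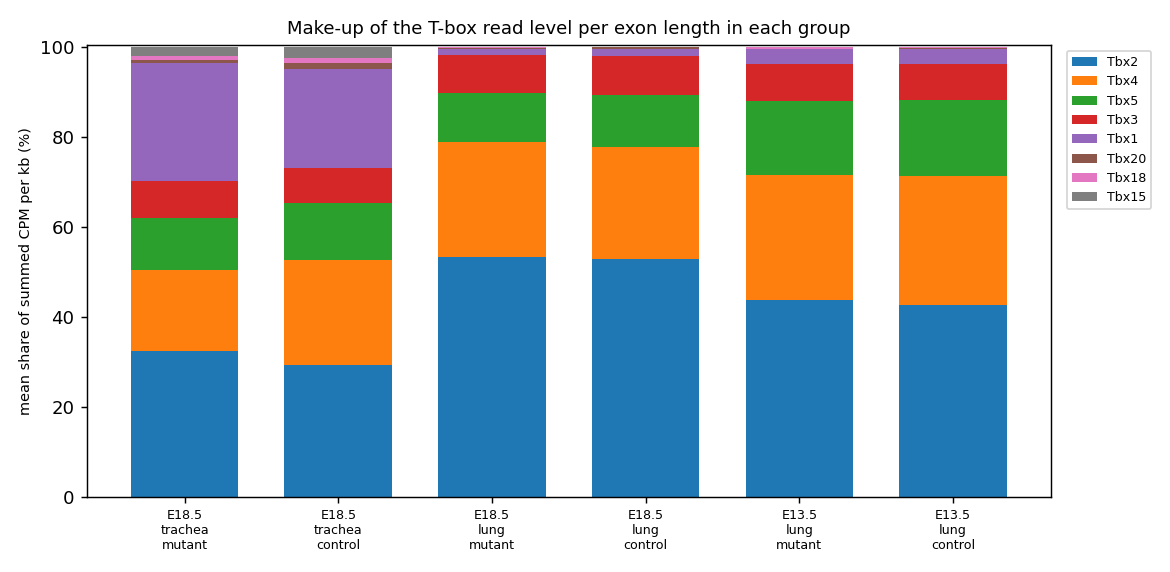
Mean share of each T-box gene in the summed CPM per kb of the 8 genes, in percent, for the 6 groups. Tbx2 takes more than any other gene in all groups, and Tbx1 takes 22% of the control trachea against 1.64% of the control E18.5 lung.

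Between mutants and controls none of the 8 genes passed the threshold. All controls but 1 carried both transgenes and 1 floxed Myocd allele. An effect already present with 1 floxed allele could therefore not be seen. In E18.5 trachea 0 of 8 members passed, where 0.071% of all genes tested did (0.00546% higher, 0.0655% lower). In E18.5 lung it was 0 of 7, where 0.584% did (0.0344% higher, 0.55% lower), and in E13.5 lung 0 of 7, where 0.206% did (0.0182% higher, 0.188% lower). Tbx15 had too few reads to be tested in the lungs. At an unadjusted p under 0.05 the counts were 0 in trachea, 0 in E18.5 lung and 1 in E13.5 lung, which was Tbx20, against 6.75%, 9.41% and 3.57% of all genes. DESeq2 called 0, 0 and 1 member, again Tbx20 at E13.5. The median log2 fold change, mutant over control, was -0.15 over the members and 0.02 over all genes in trachea, 0.08 and 0.00 in E18.5 lung, and -0.11 and 0.01 in E13.5 lung. A missed threshold does not show equal levels, and the intervals say how far apart they could be.

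**Figure D3:**
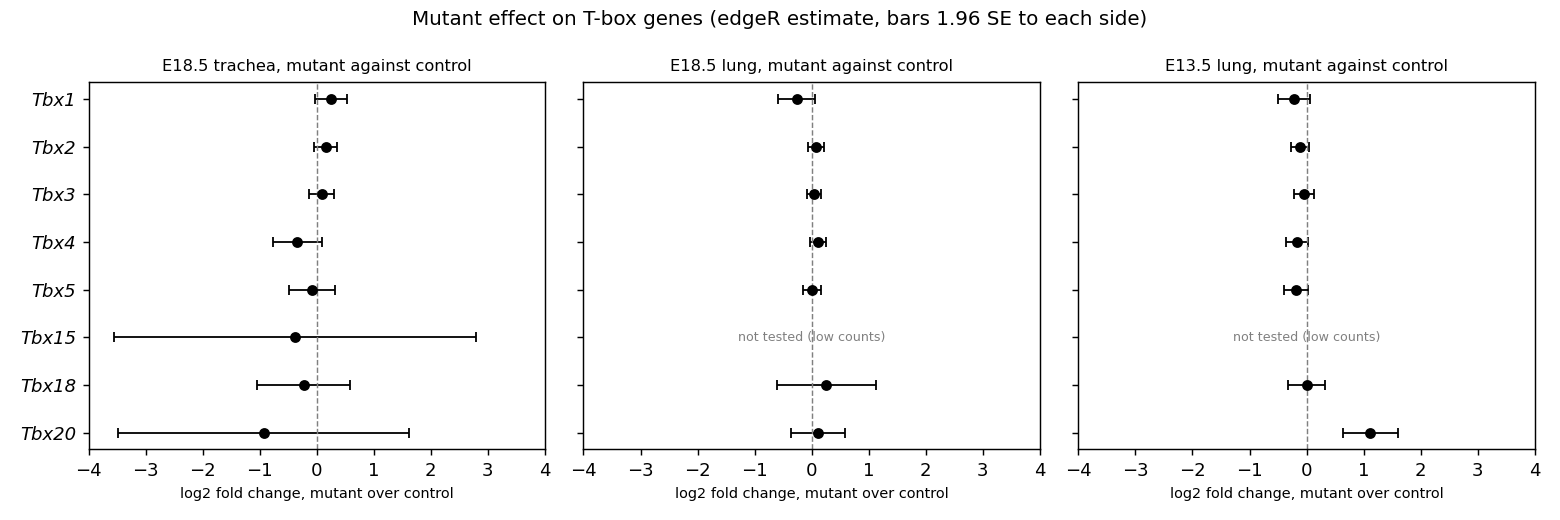
Log2 fold change of each T-box gene, mutant over control, in E18.5 trachea, E18.5 lung and E13.5 lung; points are edgeR estimates and bars 95% intervals. The intervals of Tbx1 to Tbx5 are narrow and cross 0 in the 3 panels, those of Tbx15 and Tbx20 in trachea are several log2 units wide, and that of Tbx20 in E13.5 lung lies above 0.

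Tbx4, the gene whose name the driver carries, was measured closely in lung and differed little between genotypes there. In E18.5 lung the lowest, median and highest mutants had 268, 282 and 309 CPM, against 264, 306, 249 and 249 CPM in controls. The groups overlapped, and the log2 fold change was 0.11 ± 0.07 (SE; 95% interval -0.03 to 0.25, adjusted p = 0.672). In E13.5 lung the 5 mutants had 165, 221, 249, 250 and 240 CPM, against 234, 268, 249, 258 and 272 CPM in controls (log2 fold change -0.17 ± 0.10 (SE), 95% interval -0.37 to 0.03, adjusted p = 0.998). Mutant 1 was the lowest of the 10, and without it the log2 fold change was -0.08. The same library had the lowest sum of lung mesenchyme markers, 3581 CPM, against 4562 to 5273 CPM in controls. Most of that sum came from the collagen genes Col1a1 and Col3a1, with medians of 1482 and 2677 CPM in controls. Tcf21 and Foxf1, also in it, had control medians of 94.3 and 196 CPM. Mutant 1 also had the lowest total of the E13.5 lungs, 17.4 M. Its pericyte markers summed to 342 CPM, against 468 to 598 CPM in controls. The part of this library in the Tbx4 value was not tested beyond leaving it out.

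The control without transgenes had 234 CPM of Tbx4, the lowest of the 5 controls, the other 4 of which lay between 249 and 272 CPM. It was also the lowest control for Tbx2 (368 CPM), Tbx3 (119 CPM) and Tbx5 (175 CPM). With a single such library no test is possible. Left out, it moved the Tbx4 log2 fold change at E13.5 to -0.20.

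In the trachea Tbx4 had 23.8, 58.3 and 70.2 CPM in the lowest, median and highest mutants, against 60.4, 78.0, 64.9 and 77.3 CPM in controls. Mutant 4 lay far below the rest, at 23.8 CPM, and also had the lowest Tbx5, 23.3 CPM, with the lung mesenchyme sum at 8874 CPM against 18051 to 24743 CPM in controls. That sum too was mostly Col1a1 and Col3a1, with control medians of 9352 and 11263 CPM. Across organs the sum ran opposite to Tbx4, at 4375 to 5214 CPM in control E18.5 lungs. Of its 7 genes, 2 were higher and 4 lower in control trachea than in control lung. The shares of all genes there were 24.5% higher and 24.6% lower. Mutant 4 had a total of 12.4 M, with 1683 CPM of skeletal muscle and 527 CPM of thyroid and parathyroid markers. Control tracheas had 33.8 to 2193 CPM and 5.16 to 630 CPM of these. The part of any of these in its Tbx4 value was not tested. The log2 fold change of Tbx4 was -0.34 ± 0.22 (SE; 95% interval -0.77 to 0.09, adjusted p = 0.772), and -0.19 without mutant 4.

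Tbx4 was lower in trachea than in lung in both genotypes, with no overlap: the highest trachea had 78.0 CPM and the lowest E18.5 lung 249 CPM. The log2 fold change, trachea over lung, was -2.33 ± 0.16 in mutants (SE; 5.02-fold lower, adjusted p = 1.79e-11) and -1.93 ± 0.20 in controls (3.81-fold lower, adjusted p = 1.93e-08). The difference of the mutant effect between the organs was -0.40 ± 0.25 (SE, adjusted p = 0.796). Between stages, Tbx4 of mutant lungs was 0.36 ± 0.09 higher in log2 at E18.5 than at E13.5 (SE, adjusted p = 0.000542), while control lungs gave 0.08 ± 0.09 (adjusted p = 0.436). The test of that difference gave 0.28 ± 0.13 (SE, unadjusted p = 0.0383, adjusted p = 0.824), so the genotypes were not shown to differ in it.

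Tbx5, the partner of Tbx4 in the lung mesenchyme, followed the same order of organs. Mutant tracheas had 23.3, 50.5 and 64.4 CPM (lowest, median, highest) and control tracheas 42.1, 65.6, 45.3 and 54.7 CPM. Mutant E18.5 lungs had 148, 168 and 194 CPM, and control E18.5 lungs 174, 193, 154 and 156 CPM. Every trachea lay below every lung, by 1.73 ± 0.15 in log2 in mutants (SE, adjusted p = 9.35e-10) and by 1.71 ± 0.19 in controls (adjusted p = 5.77e-08). At E13.5 the mutants had 142, 175, 209, 204 and 182 CPM, against 175, 239, 197, 224 and 212 CPM in controls. Unlike Tbx4, Tbx5 gave a negative log2 fold change with stage, E18.5 over E13.5: -0.11 ± 0.09 in mutants (SE, adjusted p = 0.3) and -0.29 ± 0.11 in controls (adjusted p = 0.017). The control call was lost when E13.5 control 2 or E18.5 control 1, 3 or 4 was left out (log2 fold change -0.35 to -0.21 over libraries left out one at a time). The mutant effect on Tbx5 had 95% intervals of -0.49 to 0.33 in trachea, -0.16 to 0.16 in E18.5 lung and -0.39 to 0.03 in E13.5 lung.

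The balance of Tbx4 to Tbx5 within a library does not depend on depth or scaling, and the balances of this pair and of Tbx2 and Tbx3 were compared in 14 exact permutation tests (two-sided, on the log2 ratio). Both ratios were chosen after the values had been seen. Tbx4 reads per Tbx5 read averaged 1.12 ± 0.15 in mutant and 1.37 ± 0.12 in control tracheas, 1.71 ± 0.09 in mutant and 1.58 ± 0.05 in control E18.5 lungs, and 1.23 ± 0.06 in mutant and 1.23 ± 0.09 in control E13.5 lungs (SD, n = 6, 4, 6, 4, 5 and 5). In the trachea the mutants stood at 1.08, 1.05, 0.99, 1.02, 1.18 and 1.40, against 1.44, 1.19, 1.43 and 1.41 in controls. These ranges overlapped, through mutant 6 and control 2, and the log2 difference of -0.29 had an exact permutation p of 0.019 (adjusted over the 14 tests 0.0444). Without control 2, the library that stood apart, it was -0.36. That was the largest of the 10 fits with 1 library left out, which ran from -0.36 to -0.26. Among the mutant tracheas, lower ratios came with lower sums of cartilage markers. These sums were 5089, 3616, 2846 and 4872 CPM in mutants 1 to 4, which had the 4 lowest ratios, and 11106 and 11657 CPM in mutants 5 and 6. Controls 1 to 4 had 9093, 11448, 14094 and 14236 CPM, the lowest in the control with the highest ratio, so they did not show the same order. E18.5 lungs, with higher ratios, had 21.7 to 28.1 CPM in mutants and 18.6 to 27.5 CPM in controls. None of the 6 cartilage genes passed between genotypes in trachea, where 0.071% of all genes did. Their median log2 fold change was -0.87, and their part in the ratio was not tested. In E18.5 lung the log2 difference between genotypes had the other sign, 0.11, and did not pass (exact permutation p = 0.0571, adjusted 0.0889), though without mutant 1 the unadjusted exact p was 0.0159. At E13.5 it was 0.00 (p = 0.944 by the same exact test).

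The ratio also differed between organs and stages, with no overlap, in tests that took all libraries as independent. Trachea over lung at E18.5, its log2 difference was -0.62 in mutants (exact permutation p = 0.00216, adjusted 0.0152) and -0.21 in controls (exact permutation p = 0.0286, adjusted 0.05, at the threshold and not under it). Lung at E18.5 over E13.5 gave 0.47 in mutants (exact permutation p = 0.00433, adjusted 0.0152) and 0.36 in controls (exact permutation p = 0.0159, adjusted 0.0444). With 4 against 4 controls the smallest p the design allows is 0.0286.

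**Figure D4:**
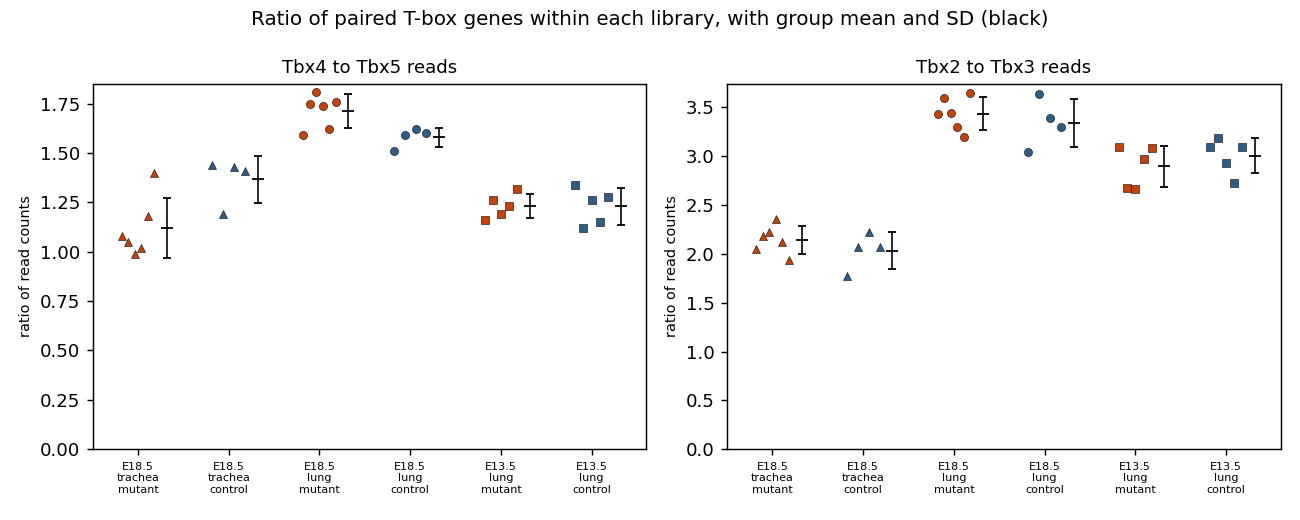
Ratio of Tbx4 to Tbx5 reads (left) and of Tbx2 to Tbx3 reads (right) in each library, with group mean and SD in black; axes start at 0. Tbx4 per Tbx5 is highest in the E18.5 lungs, at 1.51 to 1.81, and in the trachea 5 of the 6 mutants lie below the 4 controls; Tbx2 per Tbx3 is 1.77 to 2.36 in tracheas and 3.04 to 3.65 in E18.5 lungs.

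Tbx2, the most abundant member, had the largest fold between organs among the 4 lung genes. Mutant tracheas had 87.7, 102 and 112 CPM (lowest, median, highest) and control tracheas 82.0, 83.1, 104 and 104 CPM, against 593, 631 and 684 CPM in mutant and 523, 675, 589 and 640 CPM in control E18.5 lungs. The log2 fold change, trachea over lung, was -2.58 ± 0.08 in mutants (SE; 5.97-fold lower, adjusted p = 1.5e-18) and -2.70 ± 0.10 in controls (6.49-fold lower, adjusted p = 8.46e-17). In E13.5 lung the mutants had 339, 322, 410, 405 and 395 CPM, against 368, 441, 396, 404 and 431 CPM in controls. With stage, E18.5 over E13.5, Tbx2 rose by 0.77 ± 0.08 in log2 in mutants (SE, adjusted p = 2.19e-09) and by 0.59 ± 0.08 in controls (adjusted p = 8.14e-07), with no overlap of the stages. Between genotypes its log2 fold changes were 0.16, 0.08 and -0.11 in trachea, E18.5 lung and E13.5 lung, and the widest 95% interval was -0.04 to 0.36, in trachea.

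Tbx3, which overlaps Tbx2 in function, moved in the same directions by smaller amounts. It had 37.2, 49.3 and 52.9 CPM in mutant tracheas (lowest, median, highest) and 46.2, 40.2, 46.8 and 50.4 CPM in control tracheas, against 164, 186 and 198 CPM in mutant and 172, 186, 174 and 194 CPM in control E18.5 lungs. The organs did not overlap, and the log2 fold change, trachea over lung, was -1.89 ± 0.08 in mutants (SE, adjusted p = 1.83e-16) and -1.98 ± 0.10 in controls (adjusted p = 9.08e-15). E13.5 lungs had 110, 120, 154, 137 and 128 CPM in mutants, against 119, 138, 135, 148 and 140 CPM in controls. Tbx3 rose with stage by 0.52 ± 0.08 in log2 in mutants (SE, adjusted p = 1.09e-06) and by 0.43 ± 0.08 in controls (adjusted p = 4.98e-05). Per Tbx3 read there were 2.14 ± 0.14 Tbx2 reads in mutant and 2.03 ± 0.19 in control tracheas, against 3.44 ± 0.17 in mutant and 3.34 ± 0.25 in control E18.5 lungs (SD, n = 6, 4, 6 and 4). That shift between organs had no overlap (exact permutation p = 0.00216 in mutants and 0.0286 in controls, adjusted 0.0152 and 0.05). The genotypes did not pass for this ratio in trachea, E18.5 lung or E13.5 lung (exact permutation p = 0.352, 0.467 and 0.341). With stage, E18.5 over E13.5, the ratio was higher in mutant lungs with no overlap (log2 difference 0.25, exact permutation p = 0.00433, adjusted 0.0152). In control lungs the stages overlapped and the test did not pass (0.15, exact permutation p = 0.0635, adjusted 0.0889), though without E18.5 control 1 the unadjusted exact p was 0.0357.

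Tbx1, the pharyngeal member, ran the other way and was higher in trachea than in lung at E18.5, though present in lung at both stages. Mutant tracheas had 32.4, 39.4 and 50.7 CPM (lowest, median, highest) and control tracheas 32.9, 30.2, 40.8 and 33.4 CPM, against 6.78, 7.32 and 8.92 CPM in mutant and 7.32, 7.08, 11.4 and 10.7 CPM in control E18.5 lungs. No trachea overlapped a lung. The log2 fold change, trachea over lung, was 2.47 ± 0.14 in mutants (SE; 5.54-fold higher, adjusted p = 1.09e-13) and 1.92 ± 0.17 in controls (3.78-fold higher, adjusted p = 7.3e-10). The mutant estimates had opposite signs in the organs, 0.25 ± 0.14 in trachea and -0.26 ± 0.17 in E18.5 lung (SE, adjusted p = 0.747 and 0.673), and the test of the difference gave 0.55 ± 0.21 (SE, unadjusted p = 0.0167, adjusted p = 0.569). E13.5 lungs had 11.2, 9.71, 16.4, 15.6 and 16.4 CPM in mutants, against 17.8, 14.7, 14.2, 18.3 and 17 CPM in controls. In the lung it fell with stage, E18.5 over E13.5, by 0.87 ± 0.15 in log2 in mutants (SE, adjusted p = 1.08e-05) and by 0.83 ± 0.16 in controls (adjusted p = 8.19e-05).

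Tbx18, known from epicardium and mesothelium, was scarce in these organs, at 0.635 to 8.05 CPM over the 30 libraries. Mutant tracheas had 1.69, 4.08 and 4.79 CPM (lowest, median, highest) and control tracheas 1.95, 8.05, 2.98 and 5.20 CPM. Mutant E18.5 lungs had 0.872, 1.52 and 2.68 CPM and control E18.5 lungs 2.34, 1.59, 0.755 and 0.635 CPM. The organs overlapped in both genotypes, yet Tbx18 was higher in trachea by 1.32 ± 0.41 in log2 in mutants (SE, adjusted p = 0.00744) and by 1.76 ± 0.51 in controls (adjusted p = 0.00559). The highest value, 8.05 CPM, was in trachea control 2, which also had 1390 CPM of heart muscle markers. Their part in it was not tested. With libraries left out one at a time the control value ran from 1.32 to 2.18 and kept its call. E13.5 mutant lungs had 3.53, 4.57, 3.82, 3.35 and 3.69 CPM, against 3.01, 5.32, 3.36, 3.58 and 3.91 CPM in control lungs, and the log2 fold change between genotypes was 0.00 ± 0.16 (SE, adjusted p = 1). With stage Tbx18 fell, E18.5 over E13.5, by 1.24 ± 0.30 in mutants (SE, adjusted p = 0.000764) and by 1.49 ± 0.35 in controls (adjusted p = 0.000477), with no overlap.

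Counted together, trachea over lung, 3 members were higher (Tbx1, Tbx15, Tbx18), 4 lower (Tbx2, Tbx3, Tbx4, Tbx5) and 1 did not pass (Tbx20), in mutants and likewise in controls. Of all genes, 58.2% passed that comparison in mutants (31.7% higher, 26.5% lower) and 49.1% in controls (24.5% higher, 24.6% lower), so that calls were common among genes at large. With stage, 4 of 7 rose and 2 fell in mutant lungs, where 75.7% of all genes passed (37.2% higher, 38.4% lower), and 3 rose and 3 fell in control lungs, where 74.7% passed (37.4% higher, 37.3% lower). The mutant effect differed past the threshold in 0 of 8 members between organs, against 0.0252% of all genes (0.00504% higher, 0.0201% lower), and in 0 of 7 between stages, against 0.0268% (0.0107% higher, 0.0161% lower). At an unadjusted p under 0.05 there were 1 between organs, Tbx1, and 2 between stages, Tbx4 and Tbx20, against 6.92% and 5.85% of all genes. DESeq2 called 0 members in both. Stage cannot be told apart from the lobes taken and the table in which the libraries were counted.

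Tbx15, a regulator of skeletal and muscle patterning, had almost no reads in lung. The E18.5 lungs held 0 to 5 reads each in mutants and 0 to 4 in controls, which is at most 0.177 CPM. Tracheas ranged widely: mutants 1 to 6 had 0.652, 0.218, 0.102, 9.62, 4.73 and 21.1 CPM, and controls 1 to 4 had 24.5, 0, 0.316 and 7.24 CPM. High and low libraries occurred in both genotypes. Skeletal muscle markers (Ckm, Acta1, Myod1, Myog, Myf5, Mylpf and Tnnt3) summed to 55, 32.2, 15.2, 1683, 813 and 2444 CPM in the same mutants and to 2193, 129, 33.8 and 804 CPM in the same controls. The 5 tracheas with over 4 CPM of Tbx15 were the 5 with at least 804 CPM of these markers, and the rest had at most 129 CPM. Of the 7 markers, 6 were at 0.5 CPM or more in mutant and 6 in control tracheas. Thyroid and parathyroid markers also varied, from 17 to 527 CPM in mutants and from 5.16 to 630 CPM in controls, with Pth and Gcm2 at 0 in both. The part of either list in the Tbx15 values was not tested.

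The edgeR log2 fold change of Tbx15, trachea over lung, was 6.65 ± 1.61 in mutants (SE, adjusted p = 0.00176) and 6.97 ± 1.95 in controls (adjusted p = 0.00663). Because the lungs hold so few reads these sizes are loose, and 1 control trachea had no read at all. Skeletal muscle markers were higher in trachea in 6 of 6 genes tested in each genotype, where 31.7% of all genes were higher in mutants and 24.5% in controls. Between genotypes in the trachea the log2 fold change was -0.38 ± 1.62 (SE; 95% interval -3.56 to 2.80), so the spread between libraries hides any effect of a few fold.

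Tbx20, a factor of heart muscle, gave the largest stage difference of the 8. E18.5 lungs held 7.97, 13.3 and 22.4 CPM in mutants (lowest, median, highest) and 16, 14, 13.3 and 8.25 CPM in controls. E13.5 lungs held 2.2, 1.23, 1.13, 2.21 and 2.4 CPM in mutants and 0.771, 0.862, 0.664, 0.837 and 1.12 CPM in controls. The stages did not overlap, and the log2 fold change, E18.5 over E13.5, was 2.93 ± 0.25 in mutants (SE; 7.60-fold higher, adjusted p = 1.16e-10) and 3.94 ± 0.28 in controls (15.4-fold higher, adjusted p = 4.49e-12). Heart muscle markers also rose with stage in 6 of 6 genes tested in each genotype, where 37.2% of all genes rose in mutants and 37.4% in controls. Sums of the heart markers were 278 to 536 CPM in mutant and 314 to 553 CPM in control lungs at E18.5, against 10.5 to 33.7 CPM in mutant and 9.74 to 13.2 CPM in control lungs at E13.5. The heart markers were uneven: Nppa was at 0 in the E18.5 lungs, and its median was 0 in the E13.5 lungs too. Myl7 stood at 30.5 to 64.7 CPM in mutant and 33 to 59.8 CPM in control E18.5 lungs. Myh6 stood at 119 to 300 CPM in mutant and 152 to 293 CPM in control E18.5 lungs, and Myl2 at 1.07 CPM or less. Mouse pulmonary veins are known to carry a sleeve of heart muscle. The part of that tissue in the Tbx20 values was not tested.

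At E13.5 the genotypes did not overlap for Tbx20, narrowly: the lowest mutant had 1.13 CPM and the highest control 1.12 CPM. The log2 fold change was 1.12 ± 0.24 (SE; 2.17-fold higher, adjusted p = 0.174), which edgeR did not call, and DESeq2 called it at the same size (1.12, adjusted p = 0.0129). Mutants 1, 4 and 5, with the higher Tbx20, had heart marker sums of 33.7, 25.3 and 27.9 CPM, while mutants 2 and 3 had 10.5 and 11 CPM, inside the control range of 9.74 to 13.2 CPM. None of the 5 heart markers tested passed, where 0.206% of all genes did, and their median log2 fold change was 0.78. At E18.5 Tbx20 gave 0.11 ± 0.24 in lung (SE, 95% interval -0.36 to 0.58), and the difference between stages was -1.02 ± 0.37 (SE, unadjusted p = 0.0108, adjusted p = 0.653).

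In the tracheas Tbx20 was set by single libraries. Mutants 1 to 6 had 25.4, 12, 2.29, 1.98, 1.6 and 2.08 CPM, and controls 1 to 4 had 0.773, 51.4, 5.19 and 1.70 CPM. Heart marker sums in the same order were 633, 414, 37, 127, 92.8 and 84.9 CPM in mutants and 55.4, 1390, 166 and 89.1 CPM in controls. The 3 libraries with the most Tbx20, control 2 and mutants 1 and 2, were the 3 with the most heart marker reads. Trachea over lung, the log2 fold change was -0.78 ± 0.86 in mutants (SE, adjusted p = 0.457) and 0.18 ± 1.05 in controls (adjusted p = 0.907). Without control 2 the control value turned to -2.37 (adjusted p = 0.0472).

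**Figure D5:**
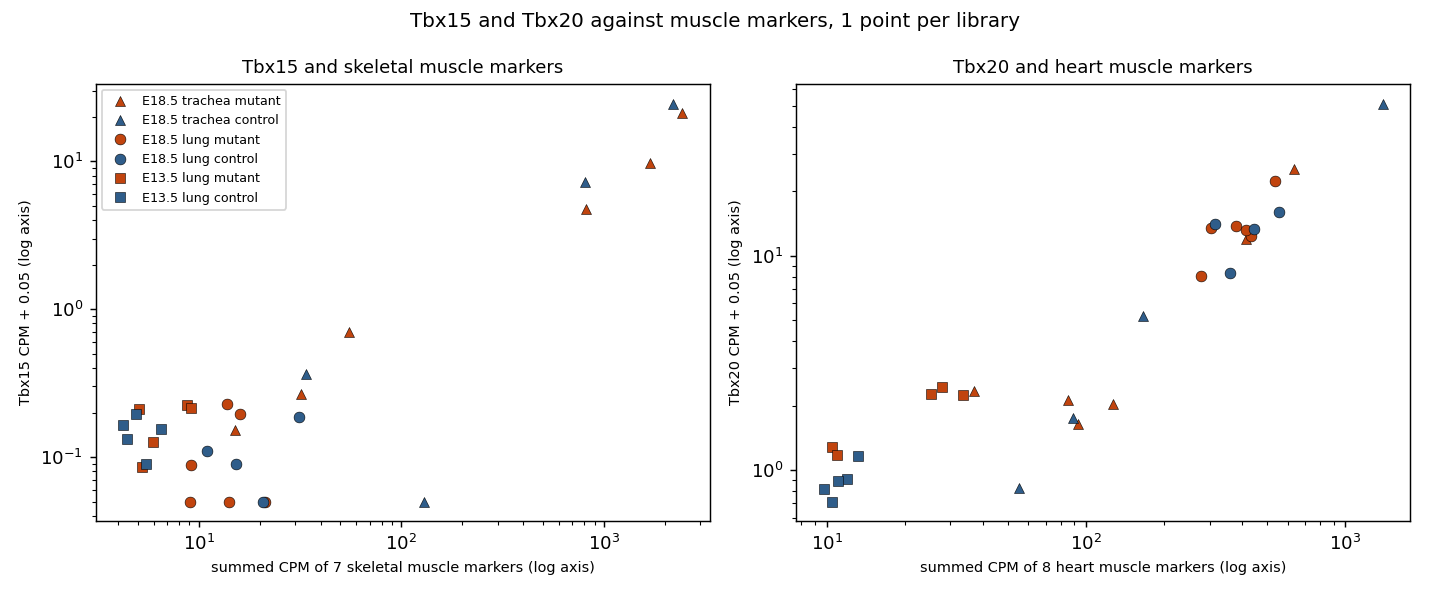
Tbx15 against the summed level of 7 skeletal muscle markers (left) and Tbx20 against that of 8 heart muscle markers (right), 1 point per library, in CPM on log axes, with 0.05 CPM added to the T-box gene. The tracheas (triangles) spread far more widely than either stage of lung in both panels, and control trachea 2 is the topmost point for Tbx20, at 51.4 CPM with 1390 CPM of heart markers.

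Of the 9 other T-box genes, 4 reached a mean of 0.5 CPM in some group. Mga, a large protein that joins a T-box to a MAX-binding domain, ran at 64.3 to 134 CPM throughout. Tbx6, a gene of paraxial mesoderm, had 2.41 to 4.37 CPM in mutant and 2.20 to 5.09 CPM in control tracheas, 5.98 to 8.54 CPM in mutant and 6.21 to 8.13 CPM in control E18.5 lungs, and 0.891 to 1.6 CPM in mutant and 0.705 to 1.26 CPM in control E13.5 lungs. In control lungs Tbx6 rose by 2.64 ± 0.20 in log2 with stage (SE, adjusted p = 9.33e-12). T, the founding gene of the family, and Tbr1 were near 1 CPM or below. None of those tested passed between genotypes, in 2 tested in trachea, 2 in E18.5 lung and 4 in E13.5 lung. The shares of all genes that passed were only 0.071%, 0.584% and 0.206% in that order.

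The signals placed with Tbx4 and Tbx5 followed the same order of organs. In controls, trachea over lung, 6 of 7 were lower and 1, Bmp4, did not pass (log2 fold change -0.17 ± 0.16). Of all genes, 24.6% were lower there. Wnt2, a mesenchymal signal that helps specify the lung, had the largest fall, by 4.56 ± 0.21 in log2 (SE). It stood at 2.44 to 4.07 CPM in control tracheas, against 59.2 to 81.2 CPM in control lungs. Lef1, Wnt2b, Fgf10, Fgfr2 and Spry2 fell by 1.52, 1.36, 1.11, 1.04 and 0.50 in log2. In mutants 6 of 7 were lower too, where 26.5% of all genes were. Bmp4 was among them (log2 fold change -0.36), and Wnt2b was the one that did not pass (-0.27). With stage in control lungs, Fgf10, Fgfr2 and Spry2, a ligand, its receptor and a feedback inhibitor of that pathway, rose by 0.74, 0.63 and 0.63 in log2, while Lef1, Wnt2b and Wnt2, of the Wnt pathway, fell by 1.72, 1.02 and 0.54. Calls with stage were common, as 37.4% of all genes rose and 37.3% fell. Between genotypes 0 of 7 passed in trachea, E18.5 lung and E13.5 lung, where only 0.071%, 0.584% and 0.206% of all genes did.

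The genes placed with Tbx2 and Tbx3 split. In controls, trachea over lung, Cdkn2b and Cdkn1b, inhibitors of the cell cycle, were lower by 5.20 and 0.82 in log2, Frzb, a secreted Wnt inhibitor, was higher by 2.67, and 3 of the 6 tested did not pass, where 49.1% of all genes passed. In mutants Cdkn2b and Cdkn1b were lower by 4.92 and 0.82, Frzb, Ndrg1 and Cdkn1a were higher by 2.36, 0.47 and 0.40, and 1 of the 6, Shisa3, did not pass. Of all genes, 58.2% passed in mutants. With stage in control lungs Cdkn2b, Ndrg1, Cdkn1a and Cdkn1b rose by 6.86, 3.31, 2.68 and 1.13, Shisa3 fell by 2.70, and Frzb did not pass. Of all genes, 74.7% passed with stage in control lungs. Cdkn1a stood at 33.1 to 69.3 CPM in control E18.5 lungs against 6.22 to 9.09 CPM in control E13.5 lungs. Any link between these genes and the levels of Tbx2 and Tbx3 was not tested. Between genotypes 0 of 6 passed in trachea, 0 of 6 in E18.5 lung and 0 of 5 in E13.5 lung. The shares of all genes that passed were only 0.071%, 0.584% and 0.206% in that order.

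Over the 6 group means, the genes most like Tbx4 among 14901 were Prag1, Mapk11, Rerg, Asap2 and Mtss1l, with root mean square differences of 0.144, 0.15, 0.184, 0.185 and 0.187 on the log2 scale after centring. Tbx5, Tbx3 and Tbx2 ranked 15, 27 and 42 in that order, at 0.217, 0.248 and 0.274, whereas Tbx1 ranked 13160, at 1.84. The nearest genes were Mfng and Bend4 for Tbx2, Dusp5 and Axin2 for Tbx3, Bahcc1 and Prps2 for Tbx5, Nphp4 and Rap1gap2 for Tbx1, Dusp10 and Arl6 for Tbx18, Tff1 and Grm4 for Tbx15, and Ddx60 and Gbp9 for Tbx20. These are descriptions over 6 means, in which the organ and the stage are shared by every gene.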

How the data were processed

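RNA-seq was made from single lungs or tracheas of 30 mouse embryo samples. The submitters' processing notes name STAR and GRCm38. Each deposited table holds the authors' unnormalized counts per gene, made by featureCounts 1.6.2 with GENCODE vM17 at default options, per the file headers, so strand was ignored and reads with several places or in overlapping genes were left out. The 3 tables hold 53715 genes each, 53620 with a symbol in GENCODE vM21.

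The 8 members and the lists were chosen with earlier results of these data known. Counts were fitted in edgeR 4.0.16 (R 4.3.3; TMM, filterByExpr, robust quasi-likelihood F test, Benjamini-Hochberg threshold 0.05), each organ and stage on its own for the mutant effect, and 20 libraries together for organ, stage and differences of effects. SE is the log2 fold change divided by the square root of F, and 95% intervals are 1.96 SE to each side. Levels are CPM on TMM-scaled sizes over all 30 libraries; per-kilobase levels divide by vM17 exon length. The fit was tested on simulated counts. Total counts of 11.7 to 32.8 M per library set the precision. Nothing says that replicates came from different litters, so p-values measure spread between these samples.

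All 8 members were named; other T-box genes at a mean of 0.5 CPM or more; and members of the 2 partner lists that passed. Likeness used log2(CPM + 0.5) over genes whose mean reached 1 CPM in some group. Alternatives were DESeq2 1.42.0, RLE scaling, no count filter, a non-robust fit, a replicate block, and each library left out. The main fits and permutation tests did not treat same-numbered lungs and tracheas as pairs. Between organs the replicate block did pair them, as did a sign-flip test of the ratios added later.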

Additional observations from a re-analysis of the deposited data

Results flagged for a closer look

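Trachea control 2 was far from the other control tracheas in 2 values. It had 51.4 CPM of Tbx20, against 0.773 to 5.19 CPM in the other 3, a gap that was 0.913 of the group's range. Its ratio of Tbx4 to Tbx5 reads was 1.19, against 1.41 to 1.44 in the other 3, a gap of 0.904 of the range. The same library had 1390 CPM of heart muscle markers, against 55.4 to 166 CPM in the other control tracheas, and the lowest total count, 11.7 M. The part of either in the 2 values was not tested. Sets of 4 to 6 libraries were examined 60 times, and chance flags about 1 in 20.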

How the results depend on the processing

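The count of members past the test was 1 rather than 0 with DESeq2 in E13.5 lung, and it kept to within 1.5 times its value in the other 44 fits with another setting and in all 150 fits that left a library out. Of single members, Tbx20 in control trachea over lung turned to -2.37 without trachea control 2 (-2.37 to 0.58 over the libraries left out, 0.18 with all), Tbx5 in control lungs lost its stage call in 4 of the left-out fits (log2 fold change -0.35 to -0.21 over all of them), and Tbx20 at E13.5 gained one with DESeq2. The mean of Tbx4 in control E13.5 lungs was 240 CPM with RLE scaling, against 256 CPM.

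Over all genes, DESeq2 called 89, 264 and 82 genes between genotypes in trachea, E18.5 lung and E13.5 lung, against 13, 102 and 34, and no count filter gave 22 and 192 in trachea and E18.5 lung. For the differences of the mutant effect between organs and stages DESeq2 called 64 and 41, against 5 and 5. Leaving out single libraries gave 3 to 16, 26 to 205 and 17 to 56 genes in trachea, E18.5 lung and E13.5 lung, and 2 to 9 and 3 to 19 for the differences.

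With a replicate block the genotype counts were 28, 73 and 0 genes, and members past the test stayed at 0, 0 and 0; between organs the block gave 7 members in each genotype and between stages 6 in each. Same-numbered samples share only a number in the labels. Same-numbered E18.5 tracheas and lungs correlated at 0.0491 to 0.198 in their deviations from group means and each correlated best with its own number, in 10 of 10 pairs, and both organs of a number fell in the same class of Y-linked expression in 10 of 10, which are hints from the data. With those pairs, an alternative added after seeing the data, the organ differences of both ratios had exact sign-flip p-values of 0.0312 in mutants (6 of 6 pairs lower in trachea) and 0.125 in controls (4 of 4), the smallest those numbers of pairs allow.

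Each of the 8 libraries left out of the control organ comparison of the ratios raised the exact permutation p to 0.0571, the smallest that 3 against 4 allows. Depth limits Tbx15 in E18.5 lung, at 0 to 5 reads a library.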
